A study of Mus musculus with 9 samples.

Results

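The 3 libraries described here come from mouse testis after busulfan, an alkylating drug that kills dividing germ cells, followed by an injection of PBS. They are labelled BP, replicates 5, 6 and 7, and were chosen by that label from a series of 9 RNA sequencing libraries in 3 groups. The other groups received busulfan and exosomes in place of PBS and are not described. No group without busulfan is among the libraries, so all levels below are those of a treated testis and no loss can be measured. The labels give no age, strain, dose or interval after busulfan, and do not say whether each replicate is a separate animal, so an SD here measures the spread between 3 libraries that may share a source.

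A testis holds somatic and germ cells. Sertoli cells line the seminiferous tubules and nurse the germ cells, peritubular myoid cells wrap the tubules, and Leydig cells between the tubules make testosterone and the peptide hormone Insl3 under the control of luteinizing hormone. Germ cells pass from spermatogonia, some of which are stem cells, through meiotic spermatocytes to round and elongating spermatids. Busulfan removes most spermatogonia, and later stages vanish as they mature and are not replaced, while most somatic cells remain.

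Levels are FPKM, fragments per kilobase of exon scaled to the library total, so that genes of different length can be compared. The libraries held 57923652, 70103125 and 69365610 read counts, and an FPKM of at least 1 was reached by 14291, 13907 and 13635 genes. Mean ± SD is over the 3 libraries throughout. Photoreceptor genes were included as a check because the extraction text in the labels speaks of retinas. Only 2 of 15 reached 1 FPKM, Prph2 (8.96 ± 0.67) and Pde6a (1.17 ± 0.24), while Crx, Nrl, Pde6b and Opn1sw had 0 counts. The Leydig and Sertoli lists described below fit the labelled tissue.

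Library BP 5 stood apart from the other two. It held 61 genes at 5 FPKM or more that were at least 5-fold above both other libraries, against 11 such genes in BP 6 and 4 in BP 7. Of the 61 genes, 50 were protein-coding, among them 11 beta-defensins (Defb genes) and 3 Wfdc genes. The most abundant was Crisp1, a secreted protein of the epididymis that coats sperm, with 38837 counts in BP 5 and 0 in BP 6 and BP 7. These genes held 0.731% of the summed FPKM of BP 5, so they touch the ranking and the shares of the broad gene classes little. Their own values are given at the end. Other gene groups that were mostly highest or lowest in BP 5 are described where they come up. The share of all genes that were highest or lowest in each library was not computed. Counts of list members that were highest or lowest in a library therefore have no background here, and may reflect a tilt of the whole library. Library BP 7 was lowest for many germ cell genes, which is set out with those genes.

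A small number of transcripts held much of the signal. The 30 most abundant genes held 36.5% ± 1.57 of the summed FPKM, and the top 10 held 25.4% ± 1.09. Counted as reads instead, the same 30 genes held 13.2% ± 0.54. The first 208 genes reached 50% of the summed FPKM, and 5548 genes were needed for 90%. Among the 21884 nuclear protein-coding genes alone the numbers were 833 and 5886. Of these nuclear coding genes 3951 had 0 counts in all libraries, 6237 lay above 0 and below 1 FPKM, 7209 between 1 and 10, 4226 between 10 and 100, 255 between 100 and 1000, and 6 above 1000.

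Transcripts of mitochondrial DNA led the ranking. Its 13 coding genes make core parts of the respiratory chain and of ATP synthase. The cytochrome oxidase subunit mt-Co1 stood first at 17210, 17740 and 19176 FPKM. The oxidase subunit mt-Co2 was at 7495, 7748 and 8401 FPKM, and the cytochrome b gene mt-Cytb at 5645, 5809 and 6121. For all of these BP 7 was highest and BP 5 lowest, and the same held for the class: 25 of the 37 mitochondrial genes were highest in BP 7 and 29 were lowest in BP 5. The class took 7.10% of the counts in BP 5 (95% Wilson interval 7.09 to 7.11), 7.45% in BP 6 (7.45 to 7.46) and 8.01% in BP 7 (8.005 to 8.018). In summed FPKM it held 19.9% ± 1.25. The ribosomal RNAs of the mitochondrion were low beside its messages, with mt-Rnr1 at 204.7 ± 22.7 FPKM and mt-Rnr2 at 136 ± 29.6.

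The second most abundant entry, Gm29216, is an unprocessed pseudogene on chromosome 1, and it is 1 of 7 such entries among the first 30. All 7 lie in 1 block of 4663 bases (chr1:24611535-24616197, minus strand, GRCm38) that is a nuclear copy of part of the mitochondrial genome. The 7 copies together took 2.67% ± 0.15 of the counts and 11.3% ± 0.55 of the summed FPKM. Over its annotated length, 5 of the 7 copies are identical in sequence to their mitochondrial gene. In Gm28438, the copy of mt-Nd3, 1 of 345 bases differs, and in Gm29216, the copy of mt-Co1, 6 of 492 bases differ. The sequences below show the first 90 bases of a differing pair and of an identical pair, because they decide whether a read can be assigned. Capitals mark the bases at which copy and mitochondrial gene differ, and there are none in the second pair. All are transcript sequences of GENCODE release M21.
Gm29216, bases 1 to 90: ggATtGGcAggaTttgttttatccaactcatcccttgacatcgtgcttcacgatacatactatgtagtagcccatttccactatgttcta
mt-Co1, bases 1054 to 1143: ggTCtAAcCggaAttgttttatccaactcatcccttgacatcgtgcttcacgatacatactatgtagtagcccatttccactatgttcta
Gm10222, bases 1 to 90: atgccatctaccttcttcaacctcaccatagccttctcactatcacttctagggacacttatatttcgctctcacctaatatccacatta
mt-Nd4l, bases 1 to 90: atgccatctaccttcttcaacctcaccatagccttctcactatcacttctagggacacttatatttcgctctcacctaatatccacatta

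All 6 differing bases of Gm29216 fall at the start of the stretch shown, and the rest of its length matches mt-Co1. The counts of copy and mitochondrial gene were close to equal for 4 of the pairs. Gm10222, the copy of mt-Nd4l, had 0.987 ± 0.0058 of its partner's counts. The ratio was 0.989 ± 0.012 for Gm28438 and mt-Nd3, 0.972 ± 0.003 for Gm28437 and mt-Co3, and 0.957 ± 0.052 for Gm28661 and mt-Co2. The ratio was lower for the copies that hold only part of their gene, at 0.227 ± 0.012 for Gm29216 and mt-Co1 and 0.341 ± 0.009 for Gm28439 and mt-Nd4. Gm10925 and mt-Atp6 were the exception, with 3.86 ± 0.077 counts on the copy for each on the mitochondrial gene. mt-Atp6 was listed at 1655, 1883 and 2102 FPKM and Gm10925 at 6394, 7458 and 8003. Reads of an identical stretch cannot be told apart by sequence, so the level of each of these genes is uncertain, and the sources used here do not say how such reads were counted.

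**Figure D1:**
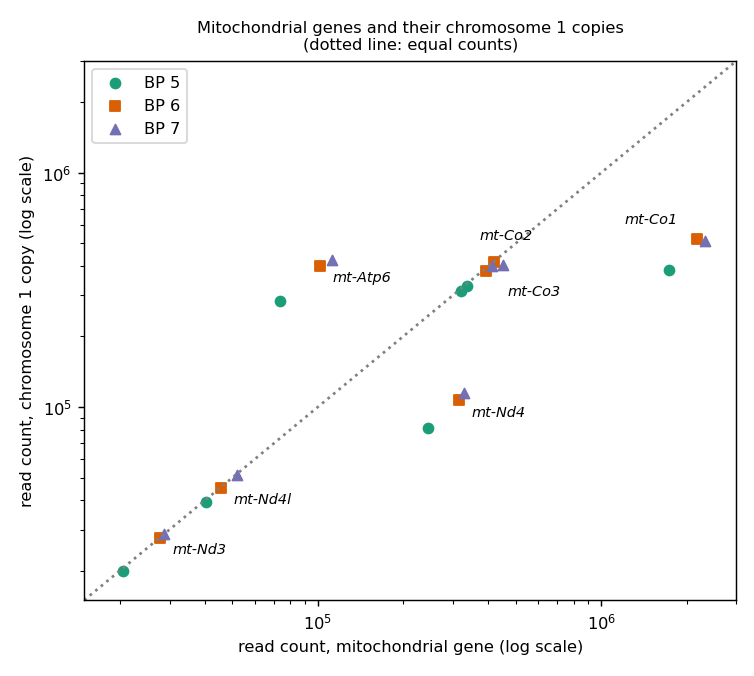
Read counts of 7 mitochondrial genes (x axis, log scale) and of their chromosome 1 copies (y axis, log scale), 1 point per BP library, with the dotted line at equal counts. The points of mt-Co2, mt-Co3, mt-Nd3 and mt-Nd4l lie on or near the line, those of mt-Co1 and mt-Nd4 below it, and those of mt-Atp6 above it at a ratio of 3.86.

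Among nuclear protein-coding genes the ranking was led by products of Leydig and Sertoli cells. Insl3, the Leydig cell hormone that acts on the gubernaculum in the first phase of testis descent, had 7512, 8022 and 7152 FPKM and held rank 4 among all genes and rank 1 among the nuclear protein-coding ones. Clu, a secreted chaperone of Sertoli cells, followed at 2614, 2785 and 2654 FPKM. No library was far from the others in either gene, whose coefficients of variation (CV, the SD as a percentage of the mean) were 5.78% and 3.34%. Insl3 (chr8:71689214-71690575, plus strand) overlaps exons of the kinase gene Jak3 on the same strand, and 61.8% of its 50-base windows also occur in Jak3 transcripts. Jak3 was listed at 10.1 ± 0.91 FPKM. Clu (chr14:65968483-65981547, plus strand) shares no 50-base window with another gene.

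The next genes were of mixed function. Defb19, a beta-defensin (chr2:152576086-152580312, minus strand), was at 1488, 1565 and 1436 FPKM, and Gstm1, a glutathione transferase that conjugates electrophiles, at 1438, 1507 and 1510. Fabp3, a fatty acid binding protein, was at 1286, 1457 and 1423 FPKM, and 37.3% of its 50-base windows occur in other genes, mostly the pseudogene Fabp3-ps1. Lcn2, a lipocalin that binds bacterial siderophores, was at 1469, 1537 and 1107. Lcn2 varied most among these 4, with BP 7 below both other libraries, while the libraries lay close together for Gstm1. The translation factor Eef1a1 (996 ± 54.0), the transferase Gstm2 (988 ± 18.7), the ubiquitin gene Ubb (874 ± 22.8) and Ptgds, a prostaglandin D synthase (865 ± 69.7), completed the first 10. Of the windows of Eef1a1 and Ubb, 40.4% and 48.1% occur in other genes, largely processed pseudogenes.

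Further down the first 30 came Sparc, a collagen-binding matrix protein (803 ± 53.9 FPKM), Psap, the precursor of the lysosomal saposins (796 ± 36.5), and Agt, angiotensinogen. The cystatin-family genes Cst12 (671 ± 31.1) and Cst9 (660.4 ± 6.9) and Inha, the alpha subunit of inhibin (659 ± 43.0), stood next to each other. Their neighbours in the order are closer than their spread, so the places of Cst12, Cst9 and Inha are interchangeable. Aard (620 ± 23.2), Cyp17a1, which turns progestins into androgens (591 ± 31.9), and Amhr2, the receptor for anti-Müllerian hormone (566 ± 11.5), followed. Of the 30 genes, 6 were on the Sertoli list and 5 on the Leydig list, with Inha on both. Of the first 100, 10 and 8 were, 11 were cytosolic ribosomal proteins, and 0 were on any germ cell list. In that order the lists hold 30, 22, 85 and 99 genes, beside 21884 nuclear protein-coding genes in all. With so small a share of germ cell genes, 0 among the first 100 says little about them.

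**Figure D2:**
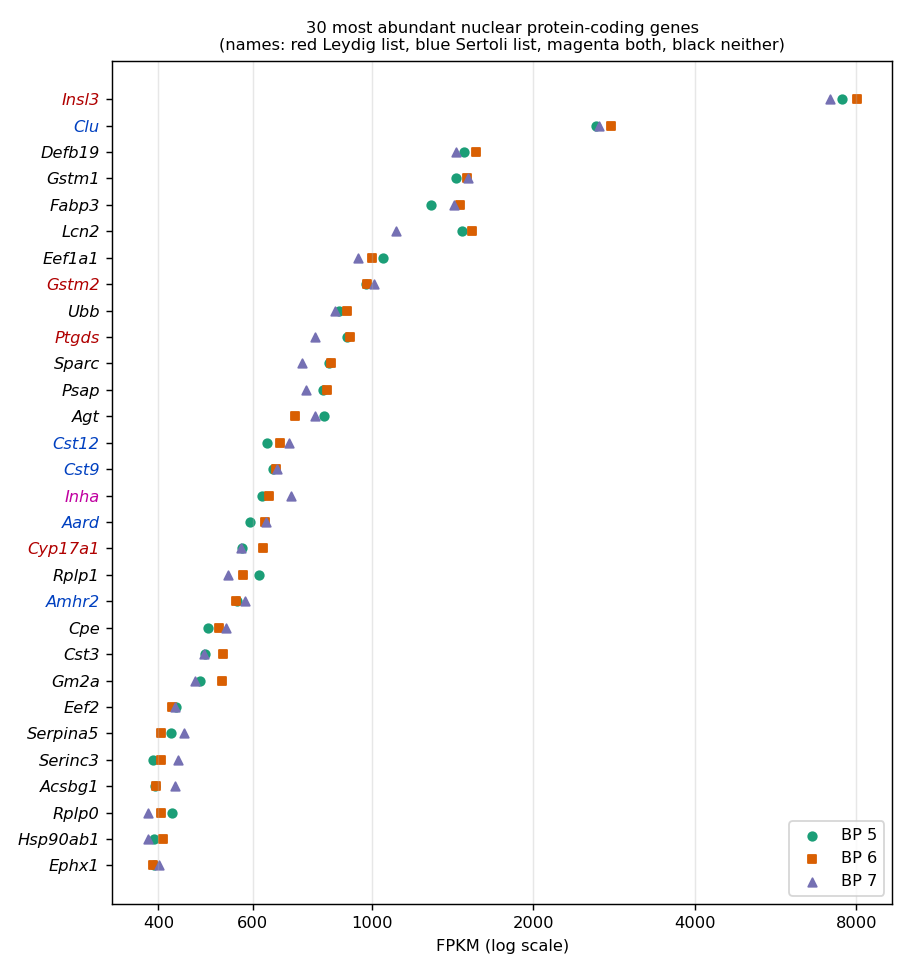
FPKM (x axis, log scale) of the 30 most abundant nuclear protein-coding genes in the 3 BP libraries, 1 marker per library, with names coloured by list. Insl3 lies alone near 7562, Clu near 2684, and the libraries lie within a narrow band for most genes, with Lcn2 in BP 7 the clearest departure.

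Leydig cells had the highest level of the 20 cell type lists. Of 22 genes, 21 reached 1 FPKM and 20 reached 10, with a median of 114, and Cyp2a5 had 0 counts. Of all nuclear protein-coding genes 53.4% reached 1 FPKM and 20.5% reached 10, with a median of 1.40. In a bulk sample, more cells of a type and more RNA per cell cannot be told apart, nor can fewer cells and less RNA. Genes for each step from cholesterol to testosterone were detected. Star, which carries cholesterol into the mitochondrion, was at 118, 176 and 170 FPKM, lowest in BP 5. Cyp11a1, which makes pregnenolone there, was at 201, 192 and 158, lowest in BP 7. The 3-beta dehydrogenases Hsd3b1 and Hsd3b6 had similar means (373 ± 5.87 and 379 ± 94.1) and unlike spreads. Hsd3b6 was at 285, 380 and 473 FPKM, so the libraries were well separated, while Hsd3b1 was at 380, 372 and 368. Hsd17b3, which makes testosterone in the last step, was at 143 ± 6.29, and the receptor for luteinizing hormone, Lhcgr, at 14.2 ± 1.05. Fdxr, which passes electrons towards Cyp11a1, was at 84.0.

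Sertoli cell genes were all detected. All 30 members reached 1 FPKM and 27 reached 10, with a median of 60.9. After Clu, the cystatins, Inha, Aard and Amhr2 came Cldn11, the claudin of the blood-testis barrier, at 344, 356 and 352 FPKM, and Tsx, a gene of the X chromosome, at 306, 351 and 355. The homeobox genes Rhox5 (117 ± 5.50) and Rhox8 (113 ± 7.17) were the only 2 of 34 Rhox genes to reach 1 FPKM, and 17 of the 34 had 0 counts. Transcription factors of the lineage were lower, with Nr5a1 at 83.8, Gata4 at 56.7, Wt1 at 44.3, Sox9 at 38 and Dmrt1 at 22.4. Wt1 was uneven, at 48.8, 30.4 and 53.7. Gata1, a factor of Sertoli cells and of blood cell precursors, was the reverse, at 51.6, 51.8 and 51.5.

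Several well-known signalling genes of Sertoli cells lay below the median of the list. Kitl, the ligand of the spermatogonial receptor Kit, was at 23.4, 23.5 and 28.9 FPKM. Gdnf, which maintains spermatogonial stem cells, was at 3.60, 3.66 and 5.14. Both were highest in BP 7. The receptor for follicle-stimulating hormone, Fshr, was at 14.3 ± 2.73, and the hormones Amh and Dhh at 16.9 ± 2.19 and 7.99 ± 0.83. Fshr, Amh and Dhh too were highest in BP 7, as were 20 of the 30 members, and BP 5 was lowest in 20.

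Peritubular and smooth muscle genes held place 3 by list level, which is the mean of log2(FPKM+1) over the members. The myosin light chain Myl9 was at 294, 307 and 303 FPKM and smooth muscle actin, Acta2, at 160, 156 and 166. The libraries lay close together for both. Of the 12 members 11 reached 1 FPKM, and the median was 17.9. Stromal genes were led by Igfbp7 (213 ± 6.5), which vessels also express, and Dcn, the proteoglycan decorin (66.2 ± 6.14), with Pdgfra (21.5 ± 0.22) and Tcf21 (17.4 ± 0.19) below them. The fibrillar collagens Col3a1 and Col1a1 were at 12.1 ± 0.96 and 9.97 ± 1.36. Endothelial genes were lower, with Cldn5 at 14.8 ± 2.08, Cdh5 at 11.4 ± 1.16 and Pecam1 at 1.89 ± 0.083, and pericyte genes lower still, with Rgs5 at 6.75 ± 0.86.

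Macrophage genes were the clearest immune set. All 13 reached 1 FPKM, with a median of 21.3. The lysozyme Lyz2 was at 170, 171 and 176 FPKM, and the complement subunit C1qa at 81.8, 74.6 and 77.1. Mrc1, the mannose receptor, was at 25.5, 25.4 and 25.5, and Adgre1, the surface marker F4/80, at 5.99 ± 0.42. The summed level of the list lay between 458 and 467 FPKM in the libraries, so it was even. T and NK cell genes were low, with 3 of 10 at 1 FPKM or more and Cd3e at 0.211 ± 0.17, and 0 of 6 B cell and 0 of 6 mast cell genes reached 1. Among red blood cell genes the hemoglobins Hbb-bs (55.0 ± 8.36), Hba-a2 (43.8 ± 9.35) and Hba-a1 (40.7 ± 7.51) were highest. Hba-a1 shares 72.3% of its windows with Hba-a2, and Hbb-bs shares 53.2% with Hbb-bt, so these values are uncertain.

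**Figure D3:**
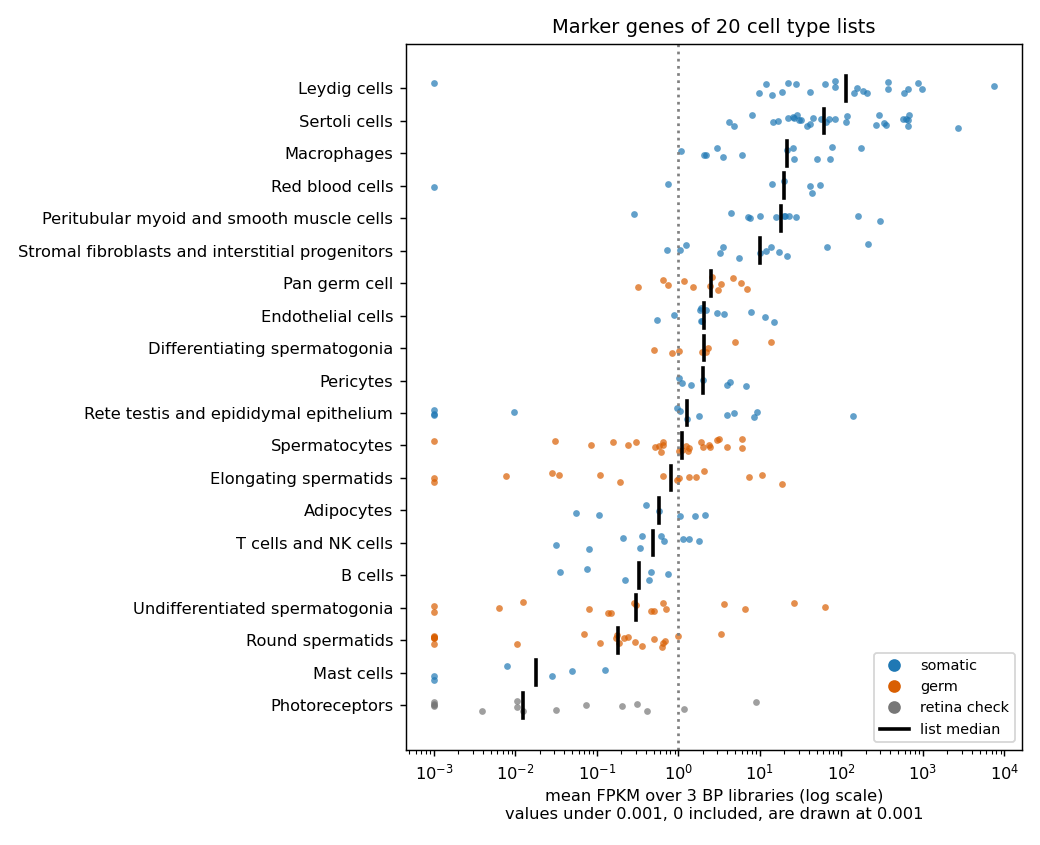
Mean FPKM over the 3 BP libraries (x axis, log scale) of each found member of 20 cell type lists, with a bar at the list median and a dotted line at 1 FPKM. Leydig (median 114) and Sertoli (60.9) genes lie highest, and the 6 germ cell lists have medians between 0.18 and 2.53.

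Germ cell genes were low on the whole. The 6 germ cell lists held 99 genes, of which 41 reached 1 FPKM, 5 reached 10 and 11 had 0 counts in all libraries. These are 41.4% and 5.05%, against 53.4% and 20.5% of all nuclear protein-coding genes, and the median was 0.650 against 1.40 FPKM. The lists differed. By the mean, 56% of the spermatocyte genes and 75% of the pan germ cell genes reached 1 FPKM, against 4.55% of the round spermatid genes. The spermatocyte and pan germ cell shares are at or above that of all coding genes, but they rest on BP 5 and BP 6. By library 16, 14 and 5 of 25 spermatocyte genes and 11, 9 and 5 of 12 pan germ cell genes reached 1 FPKM. All 6 lists together took 0.0753% ± 0.0154 of the summed FPKM. The first of them among nuclear coding genes was Uchl1, at rank 507. The 5 genes above 10 FPKM were Uchl1, Etv5, Smcp, Kit and Odf2, and several of these are also known from other cells: Etv5 from Sertoli cells, Kit from Leydig cells, Uchl1 from neurons.

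Spermatogonial genes differed widely among themselves. Uchl1, a ubiquitin hydrolase, was at 77.6, 70.2 and 41.8 FPKM, lowest in BP 7, and 12.6% of its windows are shared with its antisense partner Uchl1os. Etv5, a transcription factor that responds to Gdnf, was at 23.5, 25.2 and 30.8, highest in BP 7. The stem cell regulators Id4 (6.5 ± 0.51) and Zbtb16 (3.61 ± 1.01) were above 1. Gfra1, the receptor subunit for Gdnf, was at 0.490, 0.172 and 0.202, and Lhx1 and T had 0 counts. Thus 4 of 17 genes of undifferentiated spermatogonia reached 1 FPKM. Among 8 genes of differentiating spermatogonia 6 did by the mean, led by Kit at 13.6, 13.5 and 14.2. By library 8, 7 and 3 of them did. Stra8, which starts meiosis, was at 4.51, 1.5 and 0.548, so the 3 libraries were far apart.

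Meiotic genes were at a low level in BP 5 and BP 6 and lower in BP 7. Of 25 spermatocyte genes, 14 had a mean of at least 1 FPKM, and by library 16, 14 and 5 did. Their summed levels were 54.5, 45.6 and 21.6 FPKM, and 21 of the 25 were lowest in BP 7. Sycp3, a protein of the synaptonemal complex that pairs chromosomes, was at 3.90, 2.75 and 0.378 FPKM. Sycp3 overlaps Chpt1 on the opposite strand, and 43.0% of its windows are shared with it. Ldhc, the lactate dehydrogenase of germ cells, was at 4.11, 4.70 and 0.631, and Tex101, a surface protein of germ cells, at 5.27, 3.26 and 0.285. For these genes BP 7 lay far below the other libraries. Not all members followed: Prdm9, which places meiotic breaks, was at 2.50, 2.53 and 2.27, and Nxt1, an RNA export factor, at 6.20, 6.53 and 5.29.

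Genes shared by many germ cell stages showed the same order of libraries. The RNA helicase Ddx4 was at 3.99, 3.13 and 0.722 FPKM and the RNA-binding protein Dazl at 7.92, 5.93 and 3.96. Mael, which acts against transposons, was at 4.75, 4.24 and 0.284. BP 7 was lowest in 11 of 12 members, with summed levels of 43.4, 36.6 and 20.5. Tdrd1, of the piRNA pathway, was the member that departed from this, at 6.51, 7.14 and 7.07. Of 22 genes of DNA replication and division, 19 were lowest in BP 7 and 20 were highest in BP 5, with no share over all genes beside this. Cytosolic ribosomal proteins leaned the same way, with 63 of 85 lowest in BP 7 and 71 highest in BP 5. The division marker Mki67 was at 2.09, 1.18 and 0.654, and Pcna, the sliding clamp of replication, at 15.3, 16.2 and 14.7. Sertoli genes summed to 7719, 8103 and 8017 FPKM and Leydig genes to 12279, 13020 and 12147, sums in which Clu and Insl3 weigh heavily. As the mean of log2(FPKM+1), Sertoli genes were at 6.300, 6.335 and 6.394 and Leydig genes at 6.610, 6.689 and 6.714. Neither list had a fall in BP 7 of the size seen in the spermatocyte and pan germ cell lists. What sets BP 7 apart was not tested.

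Spermatid genes did not differ between the libraries to the same extent. Of 22 round spermatid genes only Spaca1, a protein of the acrosome, reached 1 FPKM, at 2.88, 3.82 and 3.18. Acrv1, an acrosomal protein, had 0 counts, for which 3 counts allow up to 0.0126 FPKM in BP 5. The summed levels of this list were 8.28, 9.57 and 7.79, lowest in BP 7 by a small margin. Those of the elongating spermatid list were 44.5, 43.9 and 46.1, highest in BP 7. Among elongating spermatid genes the picture was split. Smcp, of the sperm mitochondrial capsule, was at 19.12, 19.26 and 18.15, and the tail fibre genes Odf2 and Odf1 at 10.7 ± 0.70 and 7.28 ± 1.25. The protamines and transition proteins that pack sperm DNA rested on few counts. Prm1 had 0, 0 and 4 counts, Tnp1 had 0, 8 and 4, and Tnp2 had 4, 0 and 21. Prm2 was higher, at 0.692, 2.16 and 3.25 FPKM, which rests on 41, 154 and 229 counts.

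By gene class, other protein-coding genes took 54.3% ± 1.27 of the summed FPKM and 82.2% ± 0.46 of the counts. The class shares depend on the scale because short transcripts weigh more in FPKM. The Leydig list took 3.65% ± 0.14 of the FPKM and 1.79% ± 0.055 of the counts. Insl3 made up most of the FPKM part. The full Sertoli list took 2.32% ± 0.047 and 2.17% ± 0.061. Cytosolic ribosomal proteins took 2.40% ± 0.18 of the FPKM, with Rplp1 at 576 ± 38.7 and Rplp0 at 404 ± 21.1. They were highest in BP 5 for 71 of 85 genes and lowest in BP 7 for 63, with no share over all genes to set beside this. Of Rplp1, 60% of the windows are also in the annotated gene Gm10073.

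**Figure D4:**
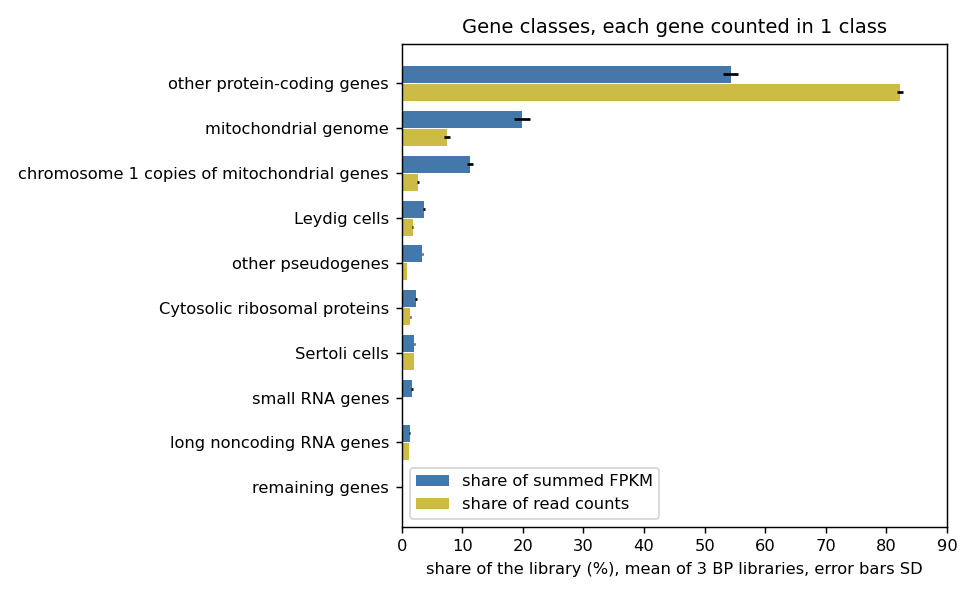
Share of summed FPKM and of read counts (x axis, percent) by gene class, mean of the 3 BP libraries with SD error bars, each gene in 1 class (genes on 2 lists are counted under the first, so the Sertoli bar leaves out those shared with Leydig cells). The mitochondrial genome takes 19.9% of FPKM and 7.52% of counts, and its chromosome 1 copies 11.3% and 2.67%.

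Most metabolic and protective genes on the lists reached 1 FPKM, as did 53.4% of all nuclear protein-coding genes. Cholesterol synthesis genes took 0.139% of the summed FPKM, glycolysis genes 0.340% and nuclear respiratory chain subunits 1.09%. Glutathione transferases took 1.10% ± 0.0064 of the FPKM, with 23 of 26 genes at 1 or more and Gsta4 at 346 ± 5.71 behind Gstm1 and Gstm2. All 22 antioxidant genes reached 1 FPKM, among them the ferritin light chain Ftl1 (327 ± 22.1) and the metallothionein Mt2 (213 ± 31.3). All 22 cholesterol synthesis genes did as well, with a median of 15.3 FPKM. Among them Hmgcs1, an enzyme early in the pathway, was at 61.5 ± 6.87. Glycolysis was led by Ldhb (433, 342 and 342 FPKM, highest in BP 5) and Aldoa (155 ± 5.81). Slc16a1, a lactate carrier, was at 29.3 ± 0.96. Gapdh, often used as a reference gene and named here for its value, was at only 15.1 ± 1.86 FPKM. Sequence shared between Gapdh and its pseudogenes was not examined.

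Lysosomal and secreted genes also had abundant members. Behind Psap stood the cathepsins Ctsl (264 ± 20.5 FPKM) and Ctsd (221 ± 11.8) and the legumain gene Lgmn (204 ± 10.6). Among protease inhibitors the cystatin Cst3 was at 501 ± 23.5, Serpina5 at 424 ± 20.9 and the metalloproteinase inhibitor Timp2 at 350.0 ± 16.9. By library 48, 40 and 38 of 113 reached 1 FPKM, most in BP 5, and by the mean 46 did. Of 16 barrier junction genes 15 did, with Nectin2 at 98.5 and Gja1, the gap junction protein of Sertoli cells, at 30.1. Of 19 targets and regulators of p53 and apoptosis 14 did, led by Sesn2 (97.7 ± 1.77) and Mcl1 (50.9 ± 1.5), with Cdkn1a at 16.8 ± 3.08. Of 19 interferon and MHC class I genes 16 did, with B2m at 386, 308 and 308, highest in BP 5 as were 15 of the 19.

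The small RNA class needs care. Of 2202 genes annotated as miRNA, 125 reached 1 FPKM, and 8 of these lie inside an exon of a protein-coding gene on the same strand. These 8 genes, 6.4% of the 125, held 57.6% of their FPKM. Gm22133 (993, 1013 and 848 FPKM) lies in Ftl1, Gm27597 (854, 820 and 751) in the ribosomal protein gene Rpl19 (272 ± 15.1), and Gm26377 (495, 482 and 489) in Eef1a1. Gm27597 is shown whole because its 80 bases (chr11:98029413-98029492, plus strand, GRCm38) also stand unbroken in 2 Rpl19 transcripts.
Gm27597: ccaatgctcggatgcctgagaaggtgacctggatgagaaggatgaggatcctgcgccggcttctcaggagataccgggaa

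A read of the Rpl19 message over these bases has the same sequence as a read of Gm27597. The 8 values can therefore not be read as levels of a small RNA, and per the labels the libraries were made from total RNA with a TruSeq RNA kit. Among long noncoding RNAs the predicted gene Gm2044 was at 114, 123 and 106 FPKM and Malat1, a nuclear RNA of most cells, at 80.9, 81.4 and 75.3. The libraries lay close together for both. Long noncoding RNA genes took 1.32% ± 0.060 of the FPKM in all, and 927 of 13125 reached 1.

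The spread between the libraries was small for abundant genes. Among 4816 genes with a mean of at least 10 FPKM and at least 100 counts in each library, the median CV was 5.87%, with quartiles at 3.49% and 9.82%, and 52 genes had a CV above 50%. Over 19571 genes with at least 10 counts in each library, low ones included, the common biological coefficient of variation fitted by edgeR was 0.261, and between 0.237 and 0.285 with 1 library left out. The median CV therefore does not describe the spread of low genes. The most even were Cers2, a ceramide synthase (48.8, 48.8 and 48.9 FPKM), Rnf135 (25.8, 25.7 and 25.8) and Pqbp1 (18.9, 18.8 and 18.9). Gata1 and Mrc1, given above, were also among the 10 most even. The most uneven were Cuzd1 (158, 1.60 and 0.860), Cd52 (199.9, 7.40 and 8.58) and Spint3 (34.5, 3.10 and 3.47), all highest in BP 5. Others stood apart in another library. The zinc finger gene Zscan26 (6.79, 31.2 and 8.52) and the antisense gene Uckl1os (5.13, 23.1 and 5.28) were highest in BP 6. The ribosomal protein gene Rpl29 (61.1, 46.2 and 1.81) was lowest in BP 7. Of the windows of Zscan26, Uckl1os and Rpl29, 22.8%, 16.5% and 35.5% occur in other genes, so their values are uncertain.

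The genes of BP 5, chosen after their values were seen, included many that are known from the epididymis, the duct in which sperm mature. Crisp1 was at 419.7, 0 and 0 FPKM, at least 15668-fold above BP 6 and 15503-fold above BP 7 when 3 counts are taken as the floor in each. Spink8, a protease inhibitor, was at 219, 1.39 and 1.20 FPKM. Serpina16 was at 116, 0.448 and 0.723. The defensins Defb28 and Defb22 were at 113 and 99.3 in BP 5 with 0 counts in the other libraries, as were the neuropeptide Npy (82.8) and Adam7, a membrane protein of epididymal epithelium (28.0). Gpx3, an extracellular glutathione peroxidase, was present in all and highest in BP 5 (234, 50.2 and 49.0), and the keratin Krt18 was at 13.4, 0.445 and 0.559.

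The list of rete testis and epididymal genes had summed levels of 486, 14.6 and 14.1 FPKM. Its level was 1.28 ± 1.03 with BP 5 and 0.68 without it. Not all epididymal genes were found: Lcn5, Lcn8 and Lcn9, lipocalins of the epididymis, had 0 counts in every library. Of the 13 members 9 were highest in BP 5. Genes of lymphocytes were also highest there, 9 of 10 for T and NK cells and 6 of 6 for B cells, and the immunoglobulin gene Igkc was at 34.5, 5.01 and 13.6. Adipocyte genes were highest in BP 6 for 7 of 7, with sums of 5.03, 10.5 and 2.17. The part of neighbouring tissue in the other values of BP 5 was not tested. Leaving BP 5 out gave a share of 37.3% for the top 30 genes and 0.0685% for the germ cell lists. These shares do not measure neighbouring tissue. Leaving out BP 7 gave 35.7% and 0.0836%.

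**Figure D5:**
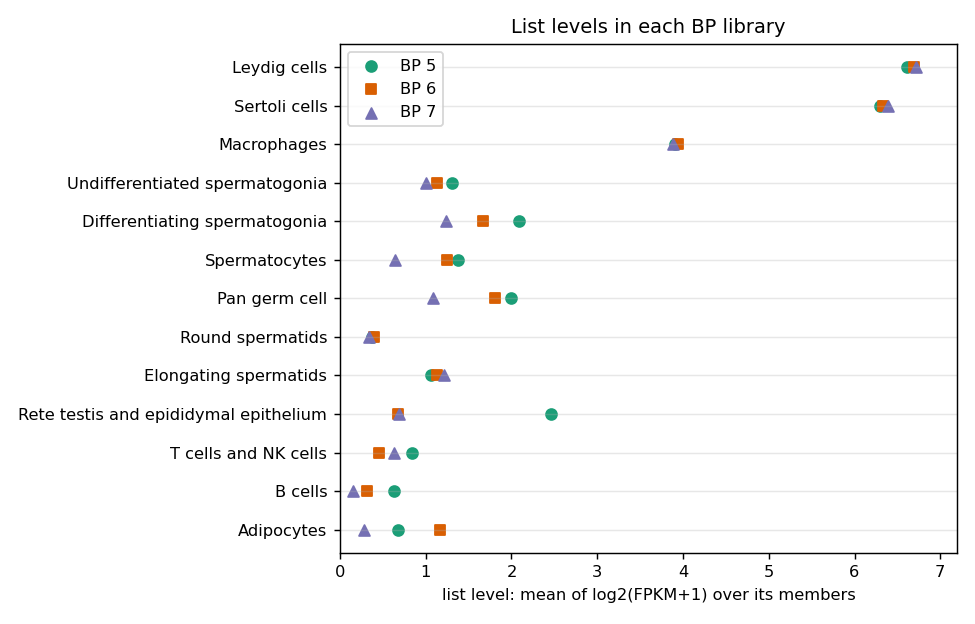
Level of 13 lists (x axis, mean of log2(FPKM+1) over the members) in each BP library, 1 marker per library. Leydig, Sertoli and macrophage levels coincide, spermatocyte and pan germ cell levels are lowest in BP 7, and the rete testis and epididymal level stands at 2.47 in BP 5 against 0.67 and 0.69.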

How the data were processed

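RNA sequencing of testis gave a deposited table of 55401 genes, each with its FPKM and read count in every library. Counts are whole numbers of reads per gene, per the file headers. The authors' FPKM equal counts per kilobase of merged exons (GENCODE M21), within 1% for 98.6% of 8568 genes with 1000 counts or more, scaled to a total 1.13-fold the table's. Deposited FPKM of 0.0001 with a count of 0 were set to 0. Bowtie 0.12.2 and mm8 are named, with no role given, per the submitters' processing notes; the coordinates are those of GRCm38 for 51957 genes, and the sources used here name neither a counter nor a strand setting.

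No test was made and no group was compared. Means, SDs and CVs are over the 3 BP libraries. A single library's share has a 95% Wilson interval, and 0 counts a floor of 3 counts; both cover counting error only. Shared sequence is the percentage of a gene's 50-base windows found in transcripts of another gene. The spread was also computed with edgeR 4.0.16 (TMM) and DESeq2 1.42.0 size factors in R 4.3.3; other steps used Python 3.11.15 and pandas 2.3.3. The steps were tested on simulated data.

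The 42 gene lists and the libraries were chosen with earlier results of these data known. After values were seen, lists defined by a name pattern, other than the mitochondrial one, were limited to protein-coding genes, and a pattern for cystatins was corrected. The rule named the 30 genes of highest mean FPKM, the first 4 of each list, the first 3 of each gene type, the 10 highest and 10 lowest CVs, and fixed markers. Other genes, including further list members, the nuclear ranking beyond those 30, the chromosome 1 copies as a class and the genes of 1 library, were named after their values were seen. Some genes are not reported here.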

Additional observations from a re-analysis of the deposited data

How the results depend on the processing

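The share of the top 30 genes, 36.5% of summed FPKM, was 13.2% of read counts. In the next settings the top 30 were picked anew among the genes kept. Their share was 32.5% among protein-coding genes only and 24.6% without mitochondrially encoded genes. The latter setting keeps the chromosome 1 copies, which took 11.3% of all summed FPKM. Without those copies, a setting chosen after seeing the data, the share was 30.2%. No setting left out both the mitochondrial genes and the copies. In the same order of settings the Leydig list went from 3.65% to 1.79%, 4.46%, 4.55% and 4.11%, and the Sertoli list from 2.32% to 2.17%, 2.84%, 2.90% and 2.62%. The mitochondrial genome went from 19.9% to 7.52% of counts, 23.7% among coding genes and 22.4% without the copies. The germ cell lists went from 0.0753% to 0.0997% of counts, 0.0920% among coding genes and 0.0937% without mitochondrial genes. These shifts follow from what each setting counts. Leaving out 1 library gave 35.7% to 37.3% for the top 30, 3.57% to 3.71% for the Leydig list, 2.30% to 2.35% for the Sertoli list, 19.2% to 20.4% for the mitochondrial genome and 0.0685% to 0.0836% for the germ cell lists. The median CV, 5.87%, was 6.31% with TMM, 6.42% with DESeq2 size factors, 8.14% over 12967 genes at 1 FPKM or more in every library, and 3.86% to 5.69% without 1 library. Of the top 30 genes, 29 or 30 stayed under TPM, the median and each library left out, and 23 without the copies, which takes out 7 of them. TPM rescales the FPKM of each library by a similar factor, so it was bound to keep nearly the same order. Of the 20 list places, 15 to 19 stayed within 1 place. The levels of 19 lists moved by over 1 SD under TPM and under log2(FPKM+0.1). Both settings change the scale of the level, so this follows from the scale. Under the other settings 0 moved, but the median or leaving out 1 of 3 libraries cannot shift a mean by 1 SD. That count therefore says nothing about stability. No paired analysis was possible because the values come from 1 group and no test. Depth limits genes under about 3 counts.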

Other observations

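Expressed genes were unevenly spread over the chromosomes. Of 175 protein-coding genes annotated on the Y chromosome, 8 had a mean of at least 1 FPKM (4.57%). On the X chromosome 429 of 929 did (46.2%). Among the autosomes the percentage lay between 43.9% on chromosome 14 and 61.8% on chromosome 12. Chromosome 8, which carries Insl3, held 5.43% ± 0.19 of the summed FPKM in its coding genes. Xist, the RNA of the inactive X chromosome, was at 0.0109 ± 0.0033 FPKM.

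Several processed pseudogenes were listed high. Gm9794 was at 259, 247 and 251 FPKM and Rpl21-ps15 at 211, 204 and 167. Rpl7a-ps11 was at 258, 95.9 and 214, low in BP 6, and Gm8226 at 5.04, 90.2 and 17.8, high in BP 6. Of the 50-base windows, 86.6% of Gm9794, 98.2% of Rpl21-ps15 and 100% of Rpl7a-ps11 and of Gm8226 occur in other genes. Rpl7a-ps11 shares 99.6% of its windows with Gm8226. Reads of such windows cannot be told apart by sequence, so these levels and their differences between libraries are uncertain. In all, 909 of 9936 processed pseudogenes reached 1 FPKM, and they held 2.96% ± 0.078 of the summed FPKM.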
